A study of Mus musculus with 2 samples.

Results

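The CXC chemokines are small secreted proteins that guide leukocytes. The 10 genes described here were taken by name, out of 55536 annotated genes with a value in both libraries. They are the neutrophil-attracting Cxcl1, Cxcl2, Cxcl3, Cxcl5 and Ppbp, the interferon-induced Cxcl9, Cxcl10 and Cxcl11, and Cxcl16 and Pf4, which were kept apart from both groups. Transcripts were measured by polyA plus RNA-seq in macrophages grown from the bone marrow of C57BL/6J mice. All cells had received 100 ng/ml lipid A for 12 h, a wash of 12 h and 100 ng/ml lipid A again for 120 min. Some label fields call the agent lipoprotein A. Lipid A is the part of bacterial lipopolysaccharide that TLR4 recognises. The 2 libraries form 1 group, so levels are described and no condition is compared with another. They are labelled biological replicates 1 and 2 but share a single donor identifier. The spread between them may therefore be partly technical.

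Neutrophil-attracting CXC chemokines carry a glutamate-leucine-arginine stretch ahead of their first cysteines and act on CXCR2 of neutrophils. In macrophages Cxcl1 and Cxcl2 are textbook NF-kB targets, made soon after a TLR signal, and their messengers hold AU-rich elements that shorten their life. Cxcl9, Cxcl10 and Cxcl11 lack that stretch, are induced by interferons, and draw T and NK cells through CXCR3. Pf4 (platelet factor 4) and Ppbp (pro-platelet basic protein) are stored in platelet granules, and Pf4 is also known from macrophages. Cxcl16 is made as a membrane protein that can be shed, and its receptor is CXCR6.

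The macrophage label was met by its markers. All 8 macrophage markers listed (Adgre1, Csf1r, Cd68, Itgam, Lyz2, Fcgr1, Mertk and Cd14) reached 10 TPM in both libraries, and their TPM summed to 18004 in replicate 2 and 16287 in replicate 1. TPM is an abundance unit that corrects reads for transcript length and sums to a fixed total per library. Reads assigned to annotated genes came to 32087637 in replicate 2 and 45341916 in replicate 1. Markers of T and NK cells summed to 0.00 TPM in replicate 2 and 0.68 TPM in replicate 1, with all 5 under 1 TPM in both libraries. Stromal and endothelial markers summed to 1.28 and 1.09 TPM, with 4 of 5 under 1 TPM in both.

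Transcript levels of the 10 genes reached from a mean of 0.115 TPM for Cxcl5 to 2731 TPM for Cxcl10, and Cxcl10 alone held most of the total. Cxcl10 made up 80.5% of the TPM of all 10 in replicate 2 and 80.4% in replicate 1. A level of at least 10 TPM in both libraries was reached by 6 of 10, namely Cxcl10, Cxcl16, Pf4, Cxcl2, Cxcl9 and Cxcl1. Of all protein-coding genes 27.2% did so, and of all annotated genes 11.1%. Only Cxcl10 and Cxcl16 reached 100 TPM in both, which 5.2% of protein-coding genes did. At least 1 TPM in both was reached by 7 of 10, Cxcl11 added, against 44.4% of protein-coding genes. Cxcl5 was the only one under 1 TPM in both libraries. In order of mean level, the 2 libraries of one gene did not overlap those of the next except in 3 places, between Pf4 and Cxcl2, between Cxcl9 and Cxcl1, and between Ppbp and Cxcl3.

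**Figure D1:**
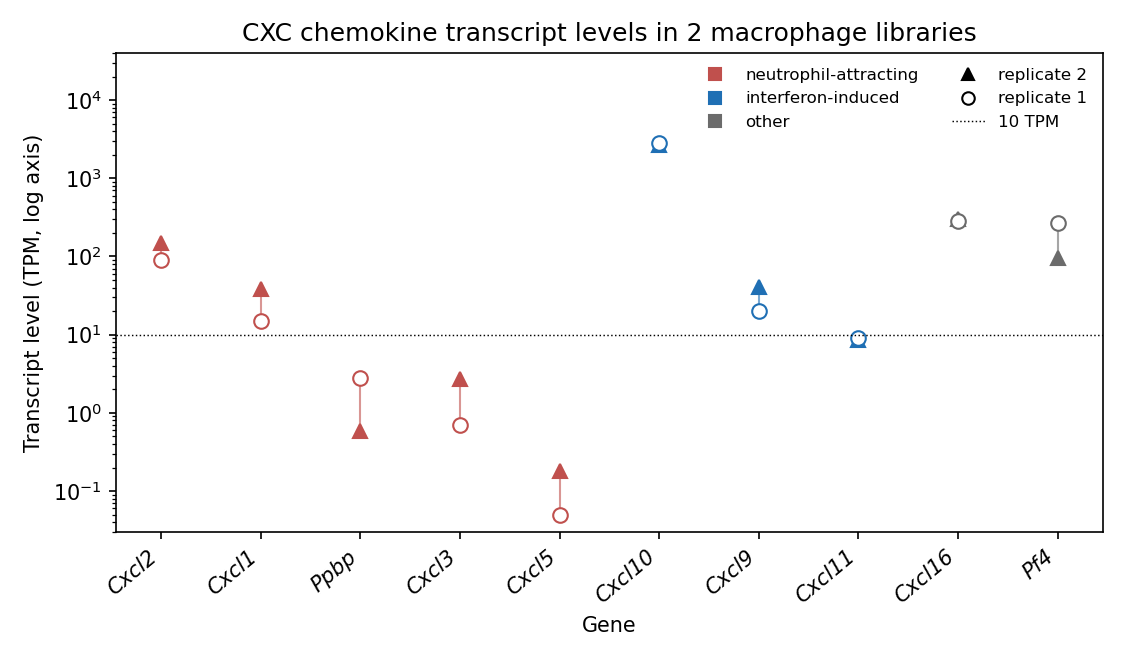
Transcript level of each gene in TPM on a log axis, with triangles for replicate 2, open circles for replicate 1 and a dotted line at 10 TPM. Colours mark neutrophil-attracting, interferon-induced and other genes. Cxcl10 sits above 2600 TPM in both libraries, while Cxcl5 lies below 0.2 TPM.

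Among the neutrophil-attracting genes Cxcl2 led. Cxcl2, also called MIP-2, had 149.7 TPM in replicate 2 and 90.03 TPM in replicate 1, a mean of 120 ± 42.2 TPM (SD, n = 2) from 2580 and 2318 reads. Cxcl1, also called KC, followed at 38.4 TPM in replicate 2 against 14.96 TPM in replicate 1, a mean of 26.7 ± 16.5 TPM. Cxcl1 rested on 559 and 319 reads. Both genes were higher in replicate 2, and the libraries of Cxcl2 and Cxcl1 did not overlap. Cxcl2 accounted for 78.2% of the summed TPM of the 5 genes in replicate 2 and 82.9% in replicate 1.

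The remaining neutrophil-attracting genes were low, with at most 71 reads in a library, and Cxcl5 was barely detected. Cxcl3, the closest relative of Cxcl2, had 2.68 TPM in replicate 2 and 0.70 TPM in replicate 1, from 43 and 16 reads. Cxcl5, a chemokine made mainly by epithelial cells, had 5 reads in replicate 2 (exact 95% Poisson interval 1.62 to 11.7 reads) and 2 reads in replicate 1 (0.242 to 7.22 reads). Intervals and floors here take in counting error alone and no other variation between libraries. Because PCR copies of one molecule are counted as separate reads, even the counting error may be understated. Ppbp had 0.58 TPM in replicate 2 and 2.83 TPM in replicate 1, from 10 and 71 reads. Cxcl3 was higher in replicate 2 and Ppbp in replicate 1, and the counting interval of the Cxcl5 ratio included no difference.

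The interferon-induced genes stood far apart from each other although they lie side by side in the genome. Cxcl10, also called IP-10, had 2645 TPM in replicate 2 and 2817 TPM in replicate 1, from 45826 and 71214 reads. It ranked 36 among all annotated genes by mean TPM. Cxcl9, also called MIG, had 40.7 TPM in replicate 2 and 19.9 TPM in replicate 1, so that Cxcl10 stood 65.0-fold above it in replicate 2 and 142-fold in replicate 1. Cxcl11, also called I-TAC, had 8.45 TPM in replicate 2 and 9.06 TPM in replicate 1, a mean of 8.76 ± 0.43 TPM (SD, n = 2). With the coding transcript of Cxcl9 alone, a choice made after seeing the data, the ratio was 102-fold in replicate 2 and 142-fold in replicate 1. Cxcl10 stood 313-fold above Cxcl11 in replicate 2 and 311-fold above it in replicate 1. The annotation classes Cxcl11 as a polymorphic pseudogene, and C57BL/6 mice are known to carry a Cxcl11 frameshift.

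Set against each other, the neutrophil-attracting genes held less transcript than the interferon-induced genes. Their summed level was 192 TPM against 2695 TPM for the interferon-induced genes in replicate 2, which is 14.1-fold lower. In replicate 1 the sums were 109 TPM for the neutrophil-attracting genes and 2846 TPM for the interferon-induced genes, which is 26.2-fold lower. The log2 ratio of the sums averaged -4.26 ± 0.63 (SD, n = 2). Cxcl10 made up 98.2% of the interferon-induced sum in replicate 2 and 99.0% in replicate 1, and Cxcl2 most of the neutrophil-attracting sum. Cxcl10 was 17.7-fold above Cxcl2 in replicate 2 and 31.3-fold above it in replicate 1.

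By medians the contrast depended on which genes were counted. The median of log2(TPM + 1) over the neutrophil-attracting genes minus that over the interferon-induced genes was -3.50 in replicate 2 and -2.45 in replicate 1, a mean of -2.98 ± 0.75. The neutrophil-attracting median was Cxcl3 in replicate 2 (2.68 TPM, 43 reads) and Ppbp in replicate 1 (2.83 TPM, 71 reads). That of the interferon-induced genes was Cxcl9 in both, at 40.72 and 19.9 TPM. In replicate 2 the coding transcript of Cxcl9 held 26.02 TPM. The SD thus also takes in a change of median gene and the Cxcl9 transcripts counted. When Cxcl3, Cxcl5 and Ppbp, which did not reach 1 TPM in both libraries, were left out, the mean difference turned to 0.88. Without Ppbp alone it was -1.90. Cxcl2 lay above Cxcl9 and Cxcl11 in both libraries, and Cxcl1 lay above Cxcl11. Cxcl9 lay above Cxcl1 within each library, at 40.72 against 38.35 TPM in replicate 2 and 19.9 against 14.96 TPM in replicate 1. Their ranges overlapped only across libraries, and in replicate 2 the coding transcript of Cxcl9 lay below Cxcl1. The groups thus interleave, with Cxcl10 alone above every neutrophil-attracting gene.

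By mean level Cxcl16 and Pf4 came next after Cxcl10. Cxcl16 differed little between libraries, at 304 TPM in replicate 2 against 280.2 TPM in replicate 1, for a mean of 292 ± 16.8 TPM (SD, n = 2). Pf4 differed more, at 95.2 TPM in replicate 2 against 271 TPM in replicate 1, from 631 and 2600 reads. It was the third most abundant of the 10 in replicate 1 and the fourth, after Cxcl2, in replicate 2.

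Cxcl1, Cxcl2 and Cxcl3 shared a promoter element, and the 250 bases before the RefSeq start of 5 genes are shown to make this visible. They are read 5′ to 3′ along each gene's own strand from RefSeq (GRCm38.p6, the same assembly as mm10). Capitals mark matches on either strand to a simplified NF-kB (kB) motif, which is GGG, any 3 bases and TTCC, or to a simplified interferon-stimulated response element (ISRE), which is GAAA, any 2 bases and GAAA. The windows are chr5:90890995-90891244 for Cxcl1, chr5:90903649-90903898 for Cxcl2 and chr5:90785851-90786100 for Cxcl3, all on the plus strand. Those of Cxcl9, chr5:92328080-92328329, and Cxcl10, chr5:92348890-92349139, are on the minus strand.
Cxcl1: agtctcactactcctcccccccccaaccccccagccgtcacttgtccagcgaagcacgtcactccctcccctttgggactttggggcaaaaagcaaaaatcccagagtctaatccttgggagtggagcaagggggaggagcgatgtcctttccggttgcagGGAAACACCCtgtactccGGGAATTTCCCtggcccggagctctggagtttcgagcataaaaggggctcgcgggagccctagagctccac
Cxcl2: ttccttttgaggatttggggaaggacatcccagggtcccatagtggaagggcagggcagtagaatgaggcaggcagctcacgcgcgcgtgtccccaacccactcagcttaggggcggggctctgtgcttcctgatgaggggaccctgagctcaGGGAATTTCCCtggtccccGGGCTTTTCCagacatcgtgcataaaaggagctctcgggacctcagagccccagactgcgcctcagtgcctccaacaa
Cxcl3: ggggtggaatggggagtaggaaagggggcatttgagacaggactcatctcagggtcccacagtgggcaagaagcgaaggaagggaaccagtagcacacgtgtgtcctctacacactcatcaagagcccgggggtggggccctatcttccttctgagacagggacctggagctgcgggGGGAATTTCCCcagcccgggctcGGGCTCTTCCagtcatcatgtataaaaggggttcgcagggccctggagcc
Cxcl9: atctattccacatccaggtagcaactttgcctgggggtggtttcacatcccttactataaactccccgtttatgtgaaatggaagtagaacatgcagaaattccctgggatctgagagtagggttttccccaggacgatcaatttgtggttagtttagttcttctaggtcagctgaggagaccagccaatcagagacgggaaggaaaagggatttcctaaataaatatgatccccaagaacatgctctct
Cxcl10: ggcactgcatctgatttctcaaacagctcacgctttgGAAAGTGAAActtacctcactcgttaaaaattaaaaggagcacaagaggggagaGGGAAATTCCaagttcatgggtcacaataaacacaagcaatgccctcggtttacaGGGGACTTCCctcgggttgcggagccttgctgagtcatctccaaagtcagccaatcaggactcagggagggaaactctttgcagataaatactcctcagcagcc

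The same 11 bases, GGGAATTTCCC, stood upstream of Cxcl1 (71 to 61 bases before the RefSeq start), Cxcl2 (97 to 87) and Cxcl3 (73 to 63). This run holds overlapping kB matches on both strands, and each of these windows held another kB match nearby. The annotation used for levels starts the Cxcl2 gene at base 90903871, inside its window, so the Cxcl2 distances depend on the start used. Cxcl10 held kB matches at 159 to 150 and 104 to 95 bases before the start, and it alone of the 7 genes with a window held the ISRE letters, GAAAGTGAAA, at 213 to 204. It also held the AP-1 letters TGANTCA at 74 to 68 bases before the start, outside the capitals, and Ppbp held them at 204 to 198. No window held TTCNNNGAA, the letters of the interferon-gamma activated site (GAS). The windows of Cxcl9 and Pf4 held none of the 4 motifs, and no window was used for Cxcl5, Cxcl11 and Cxcl16. Among all 32851 upstream windows of this length, 4.65% held the kB letters, 2.98% the ISRE letters, 6.75% the AP-1 letters and 7.02% the GAS letters. Cxcl3, whose mean level was 1.69 TPM, carried the same 11 bases as Cxcl2, whose mean level was 120 TPM. A match is a description of letters and not a measured binding site. Lack of a match to these exact letters does not show that a site is absent.

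**Figure D2:**
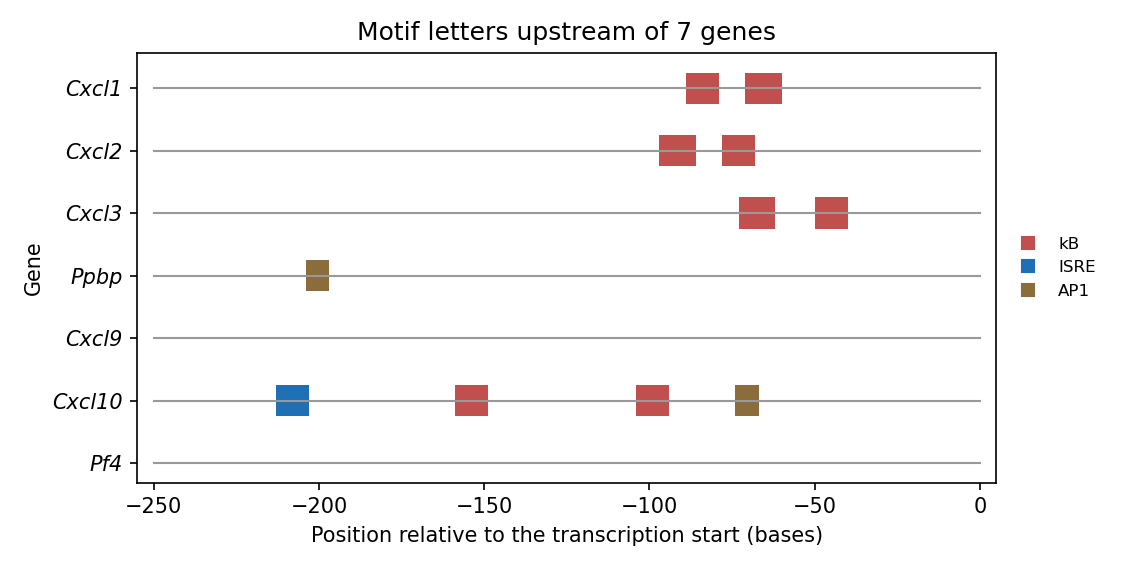
Position of motif letters in the 250 bases upstream of the RefSeq transcription start of 7 genes, in bases relative to that start. Red boxes are kB matches, blue ISRE and brown AP-1, and overlapping matches are drawn over each other. Cxcl1, Cxcl2 and Cxcl3 each hold a pair of kB boxes within 100 bases of the start, and Cxcl10 alone holds an ISRE box.

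Genes with very different levels were neighbours on the chromosome. In the mm10 annotation 6 of the genes, in the order Cxcl5, Ppbp, Pf4, Cxcl3, Cxcl1 and Cxcl2, lie on the plus strand of chromosome 5 between 90759360 and 90905938, a span of 147 kb. The only other protein-coding gene inside it is Cxcl15, a lung chemokine, which had 0 reads in both libraries. A count of 0 allows up to 0.0935 CPM (reads scaled to a fixed library total) in replicate 2 and 0.0662 CPM in replicate 1. Cxcl9, Cxcl10 and Cxcl11 lie on the minus strand 1415 kb further on, between 92321347 and 92365485. Within the first cluster Pf4 at 183 ± 124 TPM has Ppbp at 1.71 ± 1.59 TPM as its neighbour, and Cxcl2 at 120 ± 42.2 TPM has Cxcl1 at 26.7 ± 16.5 TPM (SD, n = 2 each). Cxcl16 lies apart on chromosome 11 (70453983 to 70459984, minus strand).

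**Figure D3:**
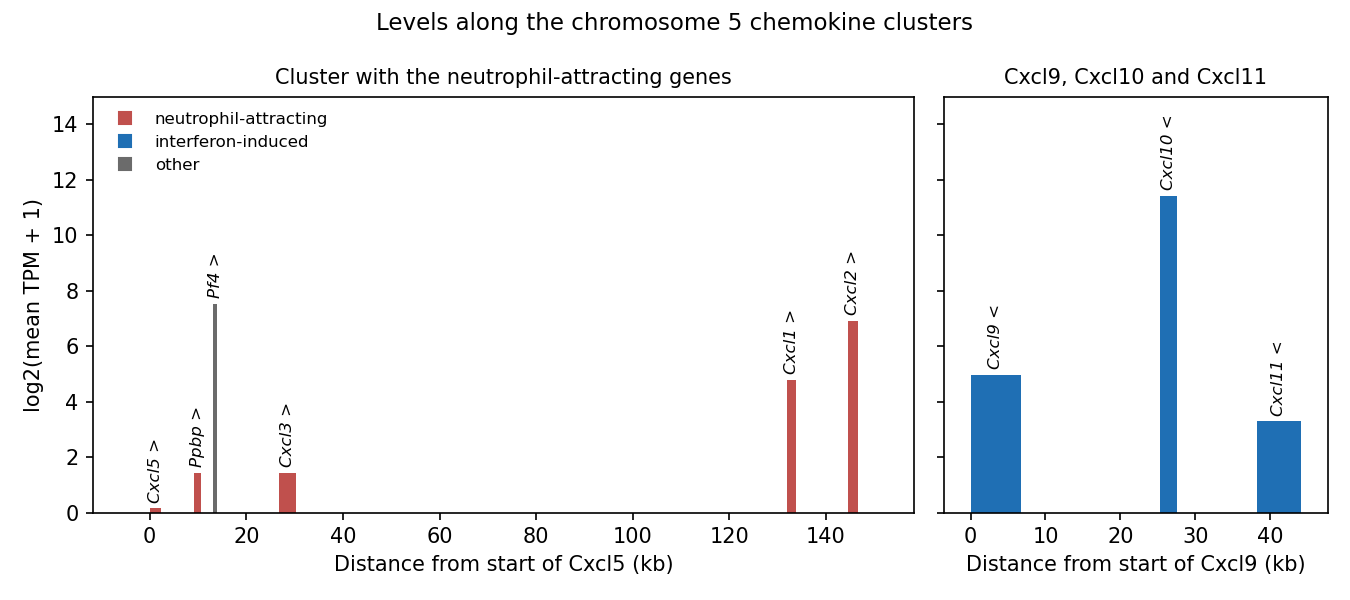
Level as log2(mean TPM + 1) of each gene at its place along the 2 chromosome 5 clusters, in kb from the start of the first gene, with bars as wide as the genes. Arrows give the strand. Pf4 stands beside the low bars of Ppbp and Cxcl5, Cxcl10 stands between the lower Cxcl9 and Cxcl11, and the horizontal scales of the panels differ.

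Related coding sequences can share reads, so likeness between the genes was measured. Cxcl2 and Cxcl3 shared 89.8% of aligned coding bases, Cxcl1 and Cxcl2 75.6%, and Cxcl1 and Cxcl3 72.6%. No other pair passed 56.2%. The deposited standard deviation of the estimated count was 0 reads for every gene except Cxcl16, where it was 2.69 reads in replicate 2 and 6.00 in replicate 1. Cxcl10 and Cxcl11 overlap Art3, a gene on the opposite strand, which had 5 and 4 reads. Cxcl16 overlaps Zmynd15 on the opposite strand, which had 9.72 and 7.80 TPM. The use of strand in counting is not given in the sources, so how reads from the overlapping stretches were assigned is not known. Zmynd15 was given 446.64 reads in replicate 2 and 478.39 in replicate 1, beside 12195.4 and 16608.6 for Cxcl16.

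Cxcl16 was the only one of the 10 with a large share of transcript that is annotated as a decay target. Its leading coding transcript held 62.2% of the gene's TPM in replicate 2 and 62.8% in replicate 1, by the deposited percentages. A shorter transcript of 1267 bases, annotated for nonsense-mediated decay, held 36.0% in replicate 2 and 35.7% in replicate 1. In the second deposited quantification that transcript held 35.6% and 36.9%. For Cxcl1, Cxcl2, Cxcl3, Cxcl5, Cxcl10, Pf4 and Ppbp, coding transcripts held at least 95.02% of TPM in each library. Retained-intron transcripts of Cxcl2 held 4.98% in replicate 2 and 3.77% in replicate 1, and those of Cxcl10 0.95% and 1.24%. Cxcl11 was split between a transcript annotated as coding, at 87.3% in replicate 2 and 87.0% in replicate 1, and one annotated as a polymorphic pseudogene, at 12.7% and 13.1%.

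For Cxcl9 the TPM and the reads gave different library ratios. A retained-intron transcript of 370 bases held 36.1% of Cxcl9 TPM in replicate 2 and 0.00% in replicate 1. It rested on 33.8 estimated reads, 2.29% of the gene's reads in replicate 2. The gene's TPM was 2.05-fold higher in replicate 2, while its reads, once scaled by TMM for library size, were 1.34-fold higher there. The coding transcript of Cxcl9 had 26.0 TPM in replicate 2 and 19.9 TPM in replicate 1, a ratio of 1.31-fold. In the second quantification the short transcript held 41.5% and 21.7%. Before scaling, Cxcl9 had 1478 reads in replicate 2 and 1627 in replicate 1.

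Cxcl1, Cxcl3, Pf4 and Ppbp differed most between the 2 libraries. Ratios are of reads in replicate 2 over replicate 1, scaled by TMM, where the mean of the libraries was 10 reads or more, which left 9 genes and dropped Cxcl5. Of these, 4 of 9 lay 2-fold or further apart, against 11.3% of the 12552 genes tested. Cxcl1 was 2.59-fold (95% counting interval 2.25 to 2.98) and Cxcl3 3.89-fold (2.19 to 7.55) higher in replicate 2, a direction taken by 5.19% of genes. Pf4 was 2.79-fold (2.56 to 3.05) and Ppbp 4.61-fold (2.47 to 10.4) higher in replicate 1, a direction taken by 6.09%. Where the mean was 100 reads or more, 7 genes were left and 2 passed 2-fold, Cxcl1 and Pf4, against 6.52% of all such genes (2.78% higher in replicate 2 and 3.74% higher in replicate 1). With no read minimum Cxcl5 made 5 of 10, and 31.2% of genes with a read did so (13% higher in replicate 2 and 18.2% higher in replicate 1). By TPM the count was also 5, with Cxcl9, against 14% of genes tested.

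Cxcl10, Cxcl11 and Cxcl16 differed least. The Cxcl10 log2 ratio was -0.07, and 88.6% of tested genes were at least as far apart. Those of Cxcl11 and Cxcl16 were -0.10 and 0.12. Cxcl9 stood at 0.42 and Cxcl2 at 0.72, both higher in replicate 2. The counting interval included no difference for Cxcl11 and Cxcl5 and left it out for the other genes. For Cxcl10 and Cxcl16 the choice of scaling alone moved the log2 ratio out of that interval. The Cxcl10 interval was -0.090 to -0.056, and the ratio was -0.051 with DESeq2 size factors and -0.137 with library totals. The Cxcl16 interval was 0.083 to 0.151, and the ratio was 0.053 with library totals. Over the 9 genes the median log2 ratio was 0.12, beside -0.03 over all genes tested. These ratios compare 2 libraries of one group, so no p-value is attached.

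**Figure D4:**
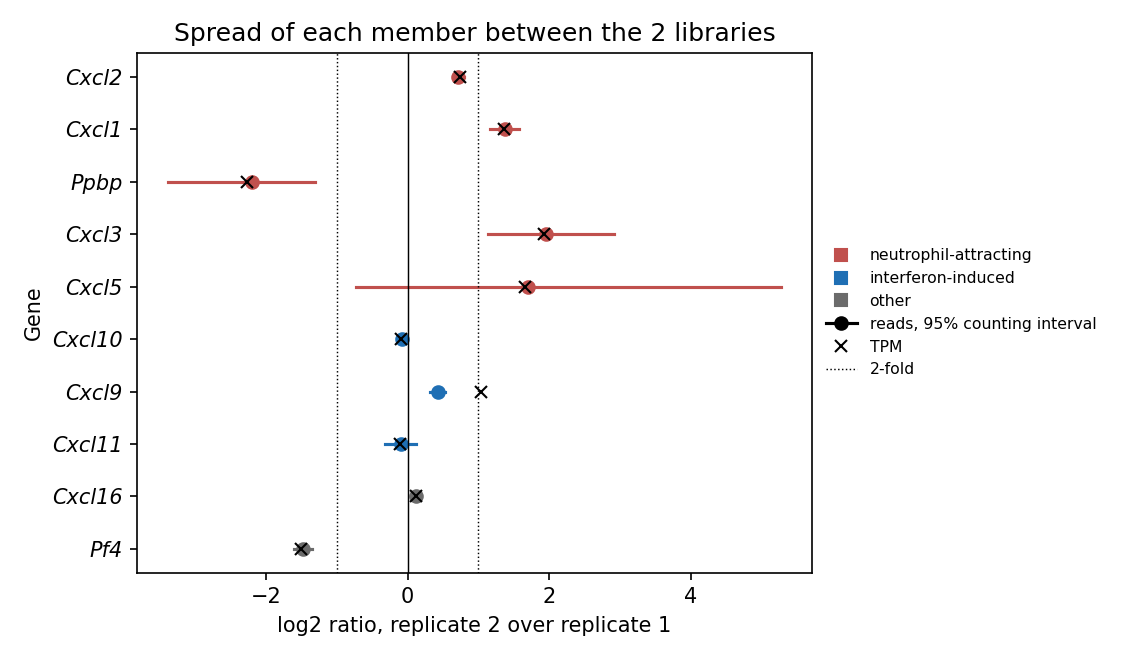
Log2 ratio of replicate 2 over replicate 1 for each gene, from reads with the 95% counting interval (dots and lines) and from TPM (crosses), with dotted lines at 2-fold. Cxcl10, Cxcl11 and Cxcl16 lie close to 0, Pf4 and Ppbp lie to the left of the lower line, and the cross of Cxcl9 alone stands clear of its dot.

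Platelet and neutrophil markers were read beside Pf4 and Ppbp, which were both higher in replicate 1. All 9 platelet markers were under 1 TPM in both libraries and none was without reads in both. Their TPM summed to 1.07 in replicate 2 and 1.63 in replicate 1. Of all protein-coding genes 44.4% reached at least 1 TPM in both libraries. Itga2b, the platelet integrin chain, had 4 and 31 reads, and Gp9 had 0 and 5, while Tubb1, the platelet tubulin, had 16 in replicate 2 and 12 in replicate 1. The Pf4 level was 164-fold and 95.7-fold that of Ppbp. Of 11 neutrophil markers 6 were under 1 TPM in both libraries, with Ly6g and Retnlg at 0 reads in both, and the list summed to 12.4 TPM in replicate 2 and 70.0 TPM in replicate 1. S100a9 had 1.18 TPM in replicate 2 and 26.4 TPM in replicate 1, and S100a8 had 3.72 and 25.8 TPM. Ngp had 8 reads in replicate 2 and 235 in replicate 1, and Ltf had 6 and 74. Mmp8 alone of the 5 neutrophil markers tested differed little, at 5.54 and 5.79 TPM. Of those 5, 0 were higher in replicate 2 by reads, against 48.2% of all genes tested. In bulk RNA, fewer cells of a type and less RNA per cell cannot be told apart. The part of these cells in the Pf4 and Ppbp ratios was not tested.

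In their 3′ untranslated regions Cxcl2, Cxcl1 and Cxcl3 were dense in ATTTA, the core of AU-rich elements that TTP (Zfp36) binds. Counted in the leading coding transcript, Cxcl2 held 11 in 734 bases, Cxcl1 held 7 in 592 and Cxcl3 held 5 in 645. That is 14.99, 11.8 and 7.75 per kb, beside a median of 1.24 per kb over 9476 detected protein-coding genes. The same density or more was found in 0.369%, 0.802% and 2.37% of those genes. Cxcl5 held 4.50 per kb and Ppbp, the last of the neutrophil-attracting genes, 1.52 per kb. The interferon-induced genes lay below Cxcl1, Cxcl2, Cxcl3 and Cxcl5, at 2.74 per kb for Cxcl10, 1.22 for Cxcl9 and 0.82 for Cxcl11. Cxcl16 held 1.41 per kb. Pf4 reached 8.13 per kb from a single ATTTA in 123 bases. The longer core TTATTTATT occurred 4 times in Cxcl2, 2 times in Cxcl1 and 1 time in Cxcl3, in no other of the 10, and in 6.64% of detected genes.

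**Figure D5:**
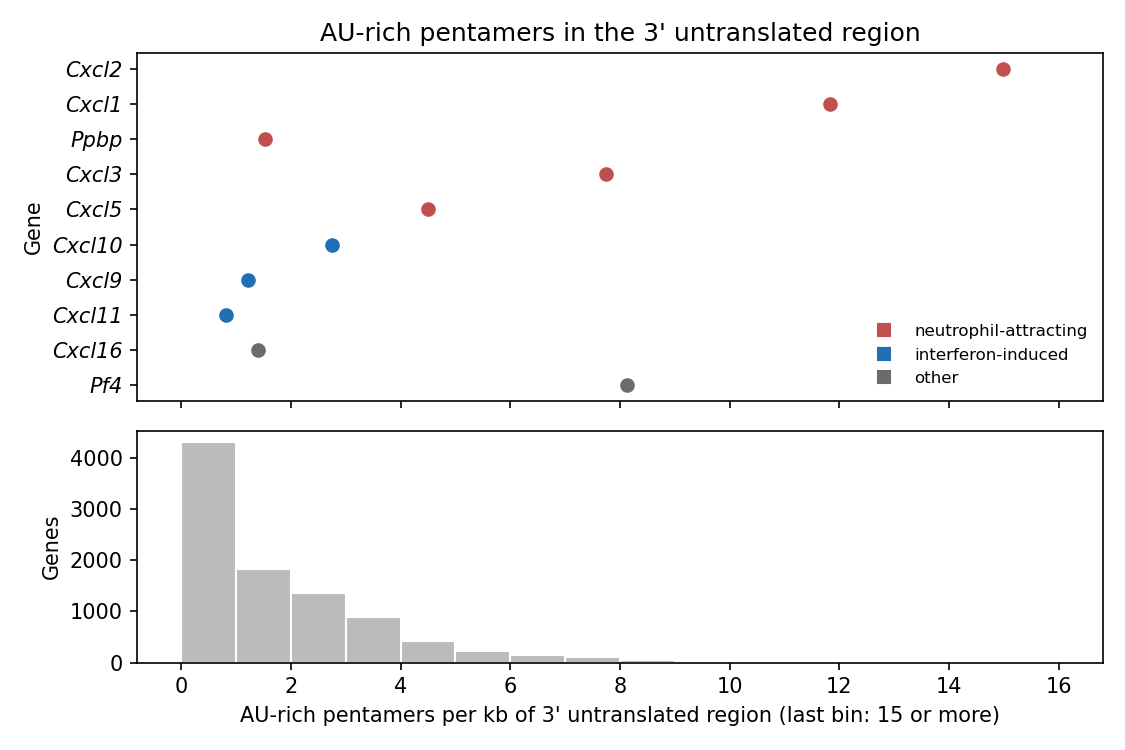
Top, AU-rich pentamers per kb of 3′ untranslated region for each gene. Bottom, the same density over 9476 detected protein-coding genes, as the number of genes per bin. Cxcl2 and Cxcl1 lie in the far tail, while Cxcl9, Cxcl11, Cxcl16 and Ppbp lie in the bulk of genes.

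The regulators of each group were expressed. All 7 NF-kB regulators stood at 10 TPM or above in each library, which 27.2% of protein-coding genes did. The inhibitor Nfkbia was highest at 627 ± 24.8 TPM (SD, n = 2). The coactivator Nfkbiz averaged 254 ± 113 TPM, the subunit Rela 225 ± 170 TPM and the precursor Nfkb1 211 ± 40.3 TPM. For Rela the TPM and the reads gave different library ratios. It had 345.68 TPM in replicate 2 and 105.13 TPM in replicate 1, while its scaled reads were 1.78-fold higher in replicate 2. Of these 7, 5 were higher in replicate 2 by reads, a direction taken by 48.2% of all genes tested, and Nfkbiz was 1.94-fold higher there. All 5 factors of mRNA decay and stability reached 10 TPM. Zfp36, the AU-rich element binding protein, was at 158 TPM in replicate 2 and 132 TPM in replicate 1. Zc3h12a, the RNase Regnase-1, was at 103 ± 22.4 TPM, Elavl1, which stabilises AU-rich messengers, at 46.8 ± 1.18 TPM and Zfp36l1 at 44.5 ± 11.0 TPM.

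On the interferon side 14 of 15 genes reached 10 TPM in both libraries, which 27.2% of protein-coding genes did. Irf7 was at 2000.2 ± 44.0 TPM, Irf1 at 506 ± 47.9 TPM and Stat2 at 322 ± 37.2 TPM (SD, n = 2 each). Ifnb1, the only type I interferon gene in the list, had 14.7 TPM in replicate 2 and 13.7 TPM in replicate 1. Ifng, the usual inducer of Cxcl9, had 1 read in replicate 2 and 10 reads in replicate 1. Of the 14 genes tested 7 were higher in replicate 2, close to the share of all genes.

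Transcripts of CXC receptors, a list that includes receptors of other ligands, were mostly low in the macrophages themselves. None of 8 CXC receptor genes reached 10 TPM in both libraries, which 27.2% of protein-coding genes did. Of the 8, 6 were under 1 TPM in both, while 44.4% of protein-coding genes reached at least 1 TPM in both. Cxcr3, the receptor of Cxcl9, Cxcl10 and Cxcl11, had the highest level, at 6.18 TPM in replicate 2 and 7.20 TPM in replicate 1, and Cxcr4 was at 3.13 ± 1.29 TPM. Cxcr2, the neutrophil receptor, had 0 reads in replicate 2 and 8 in replicate 1, and Cxcr1 had 0 and 1. Cxcr6, the receptor of Cxcl16, had 5 and 15 reads. Cxcr5 was at 0.0650 ± 0.0212 TPM, and Ackr1 and Ackr3 had 0 reads in both. Of 5 other CXC ligands all were under 1 TPM in both libraries, with Cxcl14 at 0.42 and 0.21 TPM, Cxcl12 at 0 and 4 reads, and Cxcl13, Cxcl15 and Cxcl17 without reads.

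Transcripts of proteins that act on these chemokines differed in level. Adam17 and Adam10, the membrane proteases known to shed Cxcl16, were at 79.5 ± 6.11 and 33.5 ± 2.86 TPM (SD, n = 2 each). Srgn, the granule proteoglycan that holds Pf4 in platelets, was at 810.03 TPM in replicate 2 and 475 TPM in replicate 1. Dpp4, which trims Cxcl10 at its start, was at 0.13 and 0.21 TPM.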

How the data were processed

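PolyA plus RNA-seq of 2 macrophage libraries was used, each from 1 µg of RNA per the labels. Text notes that the authors deposited beside the tables name mm10 and GENCODE M21, and say that the gene tables derive from transcriptome alignments. The programs used are not given in the sources. The deposited gene tables give the authors' expected counts, TPM (used as levels) and FPKM. The deposited transcript tables give the percent of a gene's TPM per transcript. A second deposited table, made without an alignment, gives estimated counts and TPM, summed to genes as an alternative. Of 81881 rows, the 55536 annotated genes were kept.

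Library ratios (replicate 2 over replicate 1) were taken from expected counts with a prior of 0.5 reads. Library sizes were scaled by TMM from rounded counts (edgeR 4.0.16), and ratios were used where the mean reached 10 reads. The calculation was tried on simulated counts that held counting error alone, with known changes only in genes above 100 reads. That trial does not cover genes with fewer reads, such as Cxcl3 and Ppbp. Intervals are exact (95%) and cover counting error only. No p-value was computed, since 1 group of 2 libraries offers no comparison. DESeq2 1.42.0 size factors, library totals, TPM ratios, FPKM, the second quantification, other thresholds and leaving out a library were alternatives. Motifs were searched on both strands of RefSeq windows (GRCm38.p6), held for 7 of 10 genes. AU-rich motifs and coding identity came from GENCODE M21 transcripts (Biopython 1.88).

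The genes, lists and rule for named genes (all 10 genes, up to 4 leading genes per context list by mean TPM, the receptors of the 10 genes, and Ifnb1, Ifng, Nfkbiz, Zfp36 and Irf1) were chosen with earlier results of these data known. Motifs, single transcripts, overlapping genes and other context genes were chosen after values were seen. A gene that the rule also names is not reported here.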

Additional observations from a re-analysis of the deposited data

How the results depend on the processing

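The log2 ratio of sums ranged from -4.71 to -3.81 when a library was left out and stayed within that range by FPKM, by the second quantification and without Ppbp. The count of 6 genes at 10 TPM stayed at 6 when a library was left out, and was 7 at 5 TPM and 4 at 20 TPM. The median difference ranged from -3.50 to -2.45 when a library was left out, moved to -1.90 without Ppbp, and reversed to 0.88 with only genes at 1 TPM or more in both libraries, an alternative that leaves Cxcl1 and Cxcl2 in the neutrophil-attracting group. The count of genes at least 2-fold apart was 4, fell to 2 with a mean of at least 100 reads, where Cxcl3 and Ppbp were no longer tested, and was 5 by TPM, where Cxcl9 joined, and 5 with no read minimum, where Cxcl5 joined. The mean level of Cxcl5 was 0.237 TPM in the second quantification, beside 0.115 TPM, and its log2 ratio was 0.18, beside 1.70. By the second quantification Cxcl5 was thus not 2-fold apart. The cause was not tested. No log2 ratio of a gene changed sign with DESeq2 size factors, library totals, TPM or the second quantification. Those of Cxcl9, Cxcl10 and Cxcl16 left their counting intervals under some of these alternatives. Over the 6 genes at 10 TPM, the second quantification gave 0.816 to 1.04 times the level of the gene table. No paired analysis was possible because there is a single group. Depth limits Cxcl5, Cxcl3 and Ppbp, whose levels rest on at most 71 reads per library.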
